A study of Mus musculus with 12 samples.

Results

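Noncoding RNAs that are kept in the nucleus, or that are linked to ribosomal RNA (rRNA), were examined by symbol in the RNA sequencing counts of mouse thoracic aorta. The list held 9 symbols: Gm26917, Gm42418, AY036118, Malat1, Neat1, Rn7sk, Rmrp, Rpph1 and Terc. Of these, 8 had a row among the 25284 genes of the count table, AY036118 is not analysed here, and 7 passed the filter on low counts that kept 15857 genes for testing. Terc did not pass that filter. The members were selected on their levels in these mice, the share of reads on no gene and the comparison of AZ6983 with control being in view, so the values below describe these mice and are not independent evidence. All 12 animals were male ApoE-/- mice, which lack apolipoprotein E in both groups, on a C57BL/6 background. They ate a high fat diet with cholesterol, carried osmotic minipumps under the skin and were 18 weeks old. The AZ6983 group (n = 6, mice A1 to A6) was given AZ6983, an agonist of the alpha 7 nicotinic acetylcholine receptor (α7nAChR), over 8 weeks at a daily dose of 50 µmol per kg. The control group (n = 6, mice C1 to C6) received the vehicle, cyclodextrin in saline. The deletion was present in controls too, so both groups are a model of atherosclerosis and neither is a normal aorta.

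Most RNA in a cell is rRNA, which RNA polymerase I makes as 1 long precursor that is cut into the small and large subunit RNAs. The precursor begins with an external transcribed spacer that is removed in the nucleolus. Malat1 is an abundant long noncoding RNA of nuclear speckles, and Neat1 is the scaffold of paraspeckles. RNA polymerase III makes Rn7sk (the 7SK RNA, which together with Hexim proteins holds the elongation factor P-TEFb inactive), Rmrp (the RNA of RNase MRP, which cuts the rRNA precursor) and Rpph1 (the RNA of RNase P, which trims tRNA precursors and also cuts the end of Malat1). Terc is the template RNA of telomerase.

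Gm26917 and Gm42418 are the rows linked to rRNA. In GENCODE M21 on GRCm38 (mm10), Gm26917 lies on the plus strand at chr17:39843013-39846341, is 1 exon of 3329 bases and is 69.1% G and C. Gm42418 follows 616 bases later at chr17:39846958-39848788, also as 1 exon on the plus strand. RefSeq on GRCm38.p6 places Rn18s-rs5, an 18S rRNA-related sequence, at chr17:39846354-39848202 between them, starting after a gap of 12 bases. Of the 1831 bases of Gm42418, 1245 lie inside Rn18s-rs5 and 586 after it, and RefSeq gives Gm42418 as another name of Rn18s-rs5. AY036118 lies on the minus strand within Gm42418 at chr17:39847113-39848035. The ends that face each other are shown. That of Gm26917 is printed for its position 12 bases before Rn18s-rs5. That of Gm42418 holds a run that is highly conserved in small-subunit rRNA, in capitals.
Gm26917, last bases (chr17:39846242-39846341, plus strand): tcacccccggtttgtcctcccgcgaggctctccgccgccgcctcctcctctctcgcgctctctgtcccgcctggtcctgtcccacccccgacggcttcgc
Gm42418, first bases (chr17:39846958-39847057, plus strand): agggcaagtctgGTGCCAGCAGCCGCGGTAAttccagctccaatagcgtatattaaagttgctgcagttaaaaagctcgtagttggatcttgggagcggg
The run GTGCCAGCAGCCGCGGTAA, searched on both strands, was in the transcripts of 2 of 55341 GENCODE genes (0.00361%), Gm42418 and CT010467.1, which lies opposite it. The 50-base stretches of Gm26917 had no match among transcripts of other genes on either strand. Of those of Gm42418, 94.9% were also in another gene, all of them on the opposite strand. The library kit kept strand, but the strand setting of the counting was not given in the sources used here, so reads of Gm42418 and of the genes opposite it cannot be told apart.

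**Figure D1:**
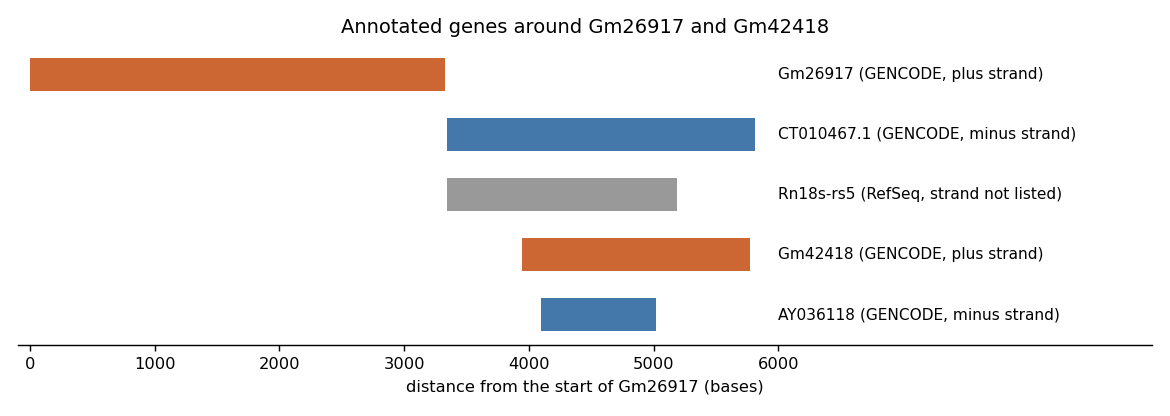
Map of the annotated genes around Gm26917 and Gm42418, to scale, with the distance from the start of Gm26917 in bases on the horizontal axis and 1 bar per gene, colored by strand (orange plus, blue minus, gray not listed). Gm26917 ends 12 bases before Rn18s-rs5, and Gm42418 overlaps Rn18s-rs5 by 1245 bases.

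The other RNAs are shown where their sequence bears on how their reads were counted. For Malat1 the stretch that holds its tRNA-like end is printed, with the 11 bases of the arm in capitals. The motif, GGTTCAAGTCC, was in 102 of 55341 genes on either strand (0.184%). Rmrp is printed whole and Rn7sk and Rpph1 by their first 300 bases, and capitals mark bases that lie in a 50-base stretch also found in the transcript of another gene.
Malat1 (chr19:5795912-5796055, minus strand): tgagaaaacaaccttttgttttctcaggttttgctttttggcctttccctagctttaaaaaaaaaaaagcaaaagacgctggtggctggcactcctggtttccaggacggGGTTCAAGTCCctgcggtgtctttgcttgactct
Rn7sk (chr9:78175334-78175633, minus strand): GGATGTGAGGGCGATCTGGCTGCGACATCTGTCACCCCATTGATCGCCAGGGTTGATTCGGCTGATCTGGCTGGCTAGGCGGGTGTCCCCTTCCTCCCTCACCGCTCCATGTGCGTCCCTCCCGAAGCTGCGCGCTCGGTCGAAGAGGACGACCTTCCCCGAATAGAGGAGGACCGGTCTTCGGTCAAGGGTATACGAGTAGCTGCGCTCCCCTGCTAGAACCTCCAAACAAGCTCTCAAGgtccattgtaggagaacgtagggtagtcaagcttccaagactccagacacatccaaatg
Rmrp (chr4:43492783-43493063, minus strand): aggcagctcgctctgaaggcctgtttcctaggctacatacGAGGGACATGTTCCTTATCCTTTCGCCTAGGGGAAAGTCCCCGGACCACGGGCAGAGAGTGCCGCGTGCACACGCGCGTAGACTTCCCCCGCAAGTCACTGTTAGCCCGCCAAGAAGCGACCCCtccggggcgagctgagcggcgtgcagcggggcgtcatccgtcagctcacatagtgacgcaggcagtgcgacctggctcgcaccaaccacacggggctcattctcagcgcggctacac
Rpph1 (chr14:50807468-50807767, minus strand): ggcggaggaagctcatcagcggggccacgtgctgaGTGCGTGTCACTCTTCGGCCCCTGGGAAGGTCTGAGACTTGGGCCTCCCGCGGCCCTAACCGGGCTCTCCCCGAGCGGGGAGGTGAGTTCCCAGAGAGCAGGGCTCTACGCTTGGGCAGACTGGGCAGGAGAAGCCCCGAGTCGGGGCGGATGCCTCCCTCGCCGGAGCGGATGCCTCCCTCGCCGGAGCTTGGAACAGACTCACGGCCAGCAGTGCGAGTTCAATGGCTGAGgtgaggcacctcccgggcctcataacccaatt
In Rn7sk, 68.1% of the 50-base stretches were shared with other genes, 7 in number, among them the 7SK-like copies Gm24447, Gm26315 and Gm26035. Rmrp has 164 bases inside Ccdc107 on the opposite strand, and Rpph1 has 284 bases inside Ccnb1ip1 on its own strand. How reads in the overlapping bases were assigned is not given in the sources used here, so the rows of these small RNAs are uncertain in that respect. Malat1 and Neat1 are neighbors on chromosome 19, both on the minus strand, with 22035 bases between them. Neat1 spans 20771 bases as 1 exon, and its row cannot separate the short from the long isoform.

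Counts on genes were 23810036 to 35864666 per mouse and their group means did not differ beyond the spread over mice (p = 0.859 in a two-sided exact permutation test). Reads on no gene were 8.02% to 12.7% of the reads in the table in control mice and 11.2% to 14.9% in AZ6983 mice. The mean share was higher with AZ6983 by 2.71 percentage points (12.8% ± 1.36 against 10.1% ± 1.55, SD, n = 6 each), with p = 0.0108 in a two-sided exact permutation test. For reads aligned to several places the AZ6983 mean was -0.881 percentage points from that of controls, which did not exceed the spread over animals (p = 0.318, exact permutation). Mouse A1 was assigned its column through 3 digits of a number of 4, and the other 11 mice through the full number. The column names hold library numbers, whose meaning is not given. They were 3 to 7 and 12 in controls and 1, 2 and 8 to 11 in AZ6983 mice. Controls with numbers 3 to 7 were all below every AZ6983 mouse in the share of reads on no gene. Control C2, number 12, had 12.7%, within the AZ6983 range. What the numbers mark and treatment therefore cannot be fully told apart. The part of the former in this share and in the levels of the RNAs was not tested. The smooth muscle marker Myh11 was high in every mouse, at 4551 to 7014 CPM (counts scaled to library size), while T cell and thymocyte markers were high in mouse A4 alone. In whole tissue, fewer cells of a type and less RNA per cell cannot be told apart.

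The 8 RNAs together took 1.21% to 1.77% of the counts on genes, and Gm26917 with Gm42418 took 0.213% to 0.465%. Both RNAs of the mitochondrial ribosome, mt-Rnr1 and mt-Rnr2, took 6.56% to 18.6%. The libraries had been depleted of rRNA, so counts of rRNA and of rows linked to it need not reflect their amount in the tissue. How well depletion worked in each library was not measured. Per kilobase of the longest annotated transcript, a rough scale for comparing genes, Rn7sk was the most abundant at 11403 ± 1823 CPM per kilobase in controls. Rmrp (4026 ± 551) and Rpph1 (3984 ± 687) came next. Their ranges overlapped, as did those of Gm26917 (648 ± 88.7) and Malat1 (643 ± 110). The RNAs of each pair were measured in the same libraries, and their difference was not tested. Gm42418 stood at 217 ± 101, Neat1 at 9.59 ± 1.58 and Terc at 0.511 ± 0.128 CPM per kilobase (SD, n = 6 controls). The value of Neat1 rests on a length of 20771 bases, though its row cannot separate the short from the long isoform.

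Gm26917, which ends just before the 18S-related sequence, had 53669 to 69645 counts in control mice and 69483 to 102162 in AZ6983 mice. Its level was 1861 CPM in the lowest control, with a median of 2148 and a highest value of 2481 CPM. In AZ6983 mice it was 2580 CPM in the lowest, with a median of 2798 and a highest value of 3674 CPM in mouse A2. The groups did not overlap, every AZ6983 mouse being above every control. Among all genes tested, 41 were higher in AZ6983 mice without overlap (0.259%) and 24 lower (0.151%). The means were 2159 ± 295 and 2932 ± 434 CPM (SD, n = 6 each). The log2 fold change was 0.44 (SE 0.124), with an adjusted p of 0.447 in edgeR's quasi-likelihood test with Benjamini-Hochberg adjustment over all 15857 genes, so Gm26917 did not pass the threshold of 10% FDR. DESeq2 gave the same size with an adjusted p of 0.0538, which is past that threshold. It called 84 of the 15857 genes, 60 higher and 24 lower. The authors' own DESeq2 list of changed genes at 10% FDR does not name Gm26917.

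Gm42418 varied most among the 7 RNAs tested, by 5.28-fold between the lowest and the highest mouse. It ranged from 241.5 CPM in control mouse C1 over a control median of 339.4 to 737.6 in C2, and from 338.0 in A3 over an AZ6983 median of 630.5 to 1275 in A5. The groups overlapped, with 2 AZ6983 mice above all controls and 3 controls below all AZ6983 mice. The log2 fold change was 0.83 (SE 0.353, edgeR adjusted p = 0.472), which did not pass the threshold.

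Malat1 was at 3711 CPM in the lowest control, at 4524 in the median and at 5799 in the highest, C2. In AZ6983 mice it was at 5012, 5796 and 6801 CPM, the highest in A2. The groups overlapped only through C2, since the other 5 controls were below all AZ6983 mice. Neat1 was less abundant, with 163, 191 and 251 CPM in controls and 216, 251 and 284 CPM in AZ6983 mice as the lowest, median and highest values. Its groups overlapped through C2 and C6. The log2 fold change was 0.37 (SE 0.133, edgeR adjusted p = 0.45) for Malat1 and 0.32 (SE 0.110, edgeR adjusted p = 0.45) for Neat1, and neither passed the threshold.

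The 3 small RNAs made by RNA polymerase III overlapped broadly between the groups. Rn7sk was at 3132 to 4912 CPM in controls (median 3684) and at 3386 to 4645 in AZ6983 mice (median 4033), with a log2 fold change of 0.10 (SE 0.126, edgeR adjusted p = 0.786). Rmrp was at 938 to 1286 CPM (median 1145) and 1019 to 1483 CPM (median 1153), with a log2 fold change of 0.06 (SE 0.113, edgeR adjusted p = 0.856). Rpph1 was at 1063 to 1651 CPM (median 1206) and 1036 to 1486 CPM (median 1215), with a log2 fold change of -0.01 (SE 0.126, edgeR adjusted p = 0.979). Control mouse C6 had the highest value of both Rn7sk and Rpph1, and A3 that of Rmrp.

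Across the comparison of AZ6983 with control, edgeR called 0 of the 15857 genes at 10% FDR (0% called) and 0 of the 7 RNAs. At an unadjusted p under 0.05, 1616 genes were found (10.2%), of which 1170 were higher in AZ6983 mice (7.38%) and 446 lower (2.81%), and Gm26917, Gm42418, Malat1 and Neat1 were among the higher ones. DESeq2 called 84 genes and limma-voom 0. Without mouse A5, edgeR called 27 genes, 5 higher and 22 lower.

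**Figure D2:**
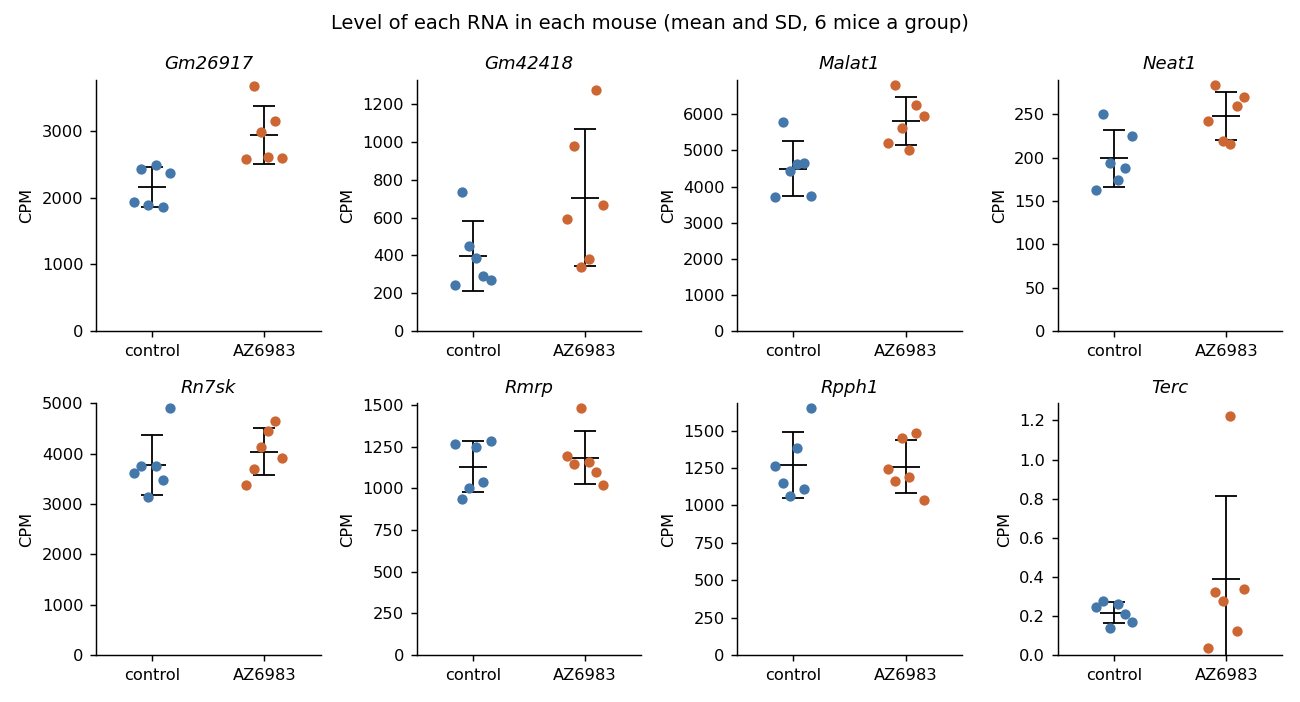
CPM of the 8 RNAs in each mouse, 1 panel per RNA with its own linear axis from 0. Points are mice (blue control, orange AZ6983), and bars give the mean and SD of 6 mice (the lower bar of Terc in AZ6983 mice is cut at 0). The 6 AZ6983 mice lie above all controls only for Gm26917, between 2580 and 3674 CPM, and mouse A4 stands apart for Terc at 1.22 CPM.

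Terc was near the limit of detection. Its counts were 7, 7, 4, 7, 6 and 5 in mice C1 to C6 and 1, 9, 7, 46, 3 and 9 in mice A1 to A6. Mouse A4 thus had more Terc counts than any other mouse. The mean level was 0.386 ± 0.427 CPM with AZ6983 against 0.216 ± 0.0543 CPM in controls (SD, n = 6 each, p = 0.491, exact permutation test, two-sided). Without A4 the AZ6983 mean was 0.219 ± 0.132 CPM (n = 5, exact permutation test, two-sided, p = 0.97). In a fit of all genes without the filter on low counts, the log2 fold change was 0.84 (SE 0.571, edgeR adjusted p = 0.585), and without A4 it was 0.01 (SE 0.428, edgeR adjusted p = 0.995). Mouse A4 also had 21669 counts of Rag1, the recombinase of developing lymphocytes, against at most 570 in the others. It had 5310 counts of Dntt, which adds bases at antigen receptor joints, and 343 of Cd3e, a T cell receptor subunit. The 3 T cell and thymocyte markers summed to 0.223 to 17.3 CPM in controls and to 0.827 to 727 CPM in AZ6983 mice. Their part in the Terc value was not tested.

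The level of each RNA was then set against the share of reads on no gene. Reads on no gene can come from unannotated or intronic sequence, or from the strand opposite a gene where strand is counted, and the share of each was not measured here. The slope of log2 expression on the share was fitted for all 15857 genes, and 1578 passed 10% FDR (9.95%), of which 1142 had a positive slope (7.2%) and 436 a negative one (2.75%). Of the 7 RNAs tested, 4 passed, all with a positive slope. The number of genes called depended on single mice and was 71 without C1, 369 without A2, 832 without A6, 883 without C3 and 1015 without C4. Treatment and the share differed together between the groups, so this slope holds a part of the treatment contrast.

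Neat1 followed the share most closely of the 7. Its slope was 0.12 on the log2 scale per percentage point of reads (SE 0.0173, edgeR adjusted p = 0.0145), ranked 13 by p among all genes. Malat1 had a slope of 0.12 (SE 0.0261, edgeR adjusted p = 0.0263). Both RNAs were lowest in C1, the mouse with the smallest share, and highest in A2, the mouse with the largest share. Over the 12 mice, Pearson's r was 0.92 for Neat1 (permutation p = 5e-05, Spearman's rho 0.92, permutation p = 8e-05) and 0.89 for Malat1 (permutation p = 0.00017, rho 0.91, permutation p = 0.00016). With C1 and A2 left out, which lay farthest from the median, r was 0.85 for Neat1 (permutation p = 0.00233) and 0.79 for Malat1 (permutation p = 0.00682). Within controls r was 0.93 for Neat1 (exact p = 0.00278) and 0.77 for Malat1 (exact p = 0.0875). Within AZ6983 mice r was 0.73 (exact p = 0.103) and 0.79 (exact p = 0.0625), which did not pass with 6 mice. Neat1 was called without each mouse in turn, and Malat1 was not called without C1 (slope 0.12, adjusted p = 0.137) or A2 (slope 0.12, adjusted p = 0.107).

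Gm26917 and Gm42418 also passed. The slope was 0.12 for Gm26917 (SE 0.0307, edgeR adjusted p = 0.0493) and 0.29 for Gm42418 (SE 0.0782, edgeR adjusted p = 0.0544). Pearson's r was 0.78 for Gm26917 (permutation p = 0.00335, rho 0.72, permutation p = 0.0111) and 0.73 for Gm42418 (permutation p = 0.00712, rho 0.73, permutation p = 0.00987). Without both C1 and A2, r was 0.58 (permutation p = 0.0799) and 0.56 (permutation p = 0.0932), so that these relations passed at 0.05 only with those mice. Within controls r was 0.44 for Gm26917 (exact p = 0.467) and 0.76 for Gm42418 (exact p = 0.0931), and within AZ6983 mice it was 0.61 (exact p = 0.183) and 0.44 (exact p = 0.374). The relation was therefore not shown within either group. Neither call was made without C1 (adjusted p = 0.18 and 0.204) or without A2 (adjusted p = 0.207 and 0.152), and that of Gm26917 was also lost without C3 (slope 0.10, adjusted p = 0.102). The slopes themselves were 0.12 without C1 and 0.09 without A2 for Gm26917, and 0.28 and 0.29 for Gm42418.

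For the small RNAs no relation with the share passed, over all mice or within a group. Slopes were 0.02 for Rn7sk (SE 0.0328, edgeR adjusted p = 0.705), -0.02 for Rmrp (SE 0.0288, edgeR adjusted p = 0.654) and -0.03 for Rpph1 (SE 0.0328, edgeR adjusted p = 0.684). Pearson's r was 0.25 for Rn7sk (permutation p = 0.426, rho 0.34, permutation p = 0.29), -0.27 for Rmrp (permutation p = 0.402, rho -0.38, permutation p = 0.225) and -0.23 for Rpph1 (permutation p = 0.472, rho -0.23, permutation p = 0.473). Within controls r was 0.17 for Rn7sk (exact p = 0.704), -0.70 for Rmrp (exact p = 0.0944) and -0.16 for Rpph1 (exact p = 0.767). Among AZ6983 mice it was -0.06 (exact p = 0.912), -0.42 (exact p = 0.426) and -0.52 (exact p = 0.271). For Rmrp, r within controls was thus farther from 0 than over all mice. Relations with 3 shares were computed for the 7 RNAs, 21 in all, and the adjusted p of each slope is over all genes. With the third share, of ambiguous reads, Gm42418 had r = -0.74 (permutation p = 0.00351, rho -0.73, permutation p = 0.00989). Rmrp had r = 0.52 (permutation p = 0.0821, rho 0.71, permutation p = 0.0115) and Rpph1 0.13 (permutation p = 0.698). Malat1 had r = -0.53 (permutation p = 0.0697, rho -0.66, permutation p = 0.0222). Neat1 had r = -0.45 (permutation p = 0.143, rho -0.60, permutation p = 0.0423). Without A5 and A4, farthest from the median of that share, r was -0.64 for Gm42418 (permutation p = 0.0527) and 0.93 for Rpph1 (permutation p = 0.0001). It was then 0.83 for Rmrp (permutation p = 0.00409), -0.57 for Malat1 (permutation p = 0.0907) and -0.44 for Neat1 (permutation p = 0.197). Each point is 1 library, whose depth and composition enter both axes.

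**Figure D3:**
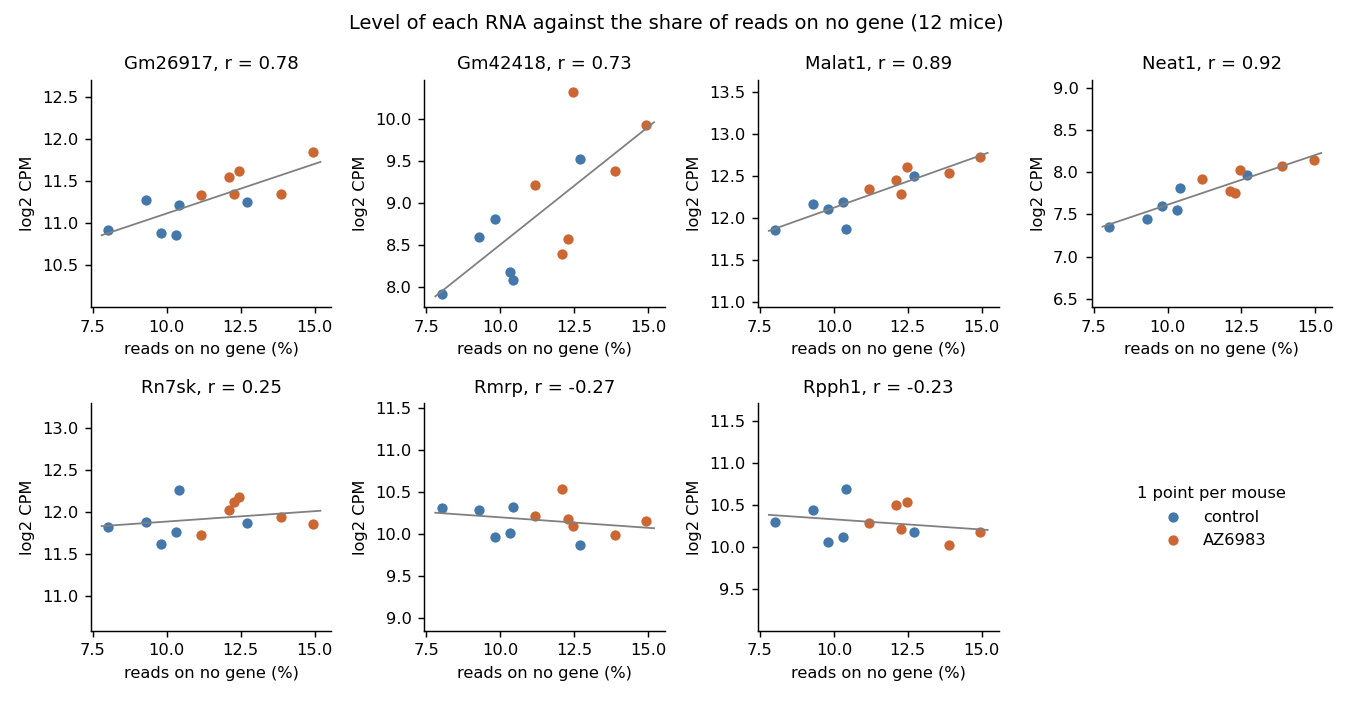
Level of each of the 7 RNAs tested (log2 CPM, vertical axis, the same span in every panel) against the percent of reads on no gene (horizontal axis). Each point is 1 mouse (blue control, orange AZ6983), the line is a least-squares fit over 12 mice, and r runs from -0.27 for Rmrp to 0.92 for Neat1.

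With the share and treatment in 1 model, edgeR called 0 genes for treatment (0% called) and 1 gene for the slope (0.00631%), and none of the 7 RNAs passed in either direction. The treatment term of Neat1 went from 0.32 (SE 0.110) to 0.01 (SE 0.0959) on the log2 scale, and that of Malat1 from 0.37 (SE 0.133) to 0.08 (SE 0.149). The slope of Neat1 stayed at 0.12 (SE 0.0253, edgeR adjusted p = 0.158) and that of Malat1 was 0.11 (SE 0.0388, edgeR adjusted p = 0.264). For Gm26917 the treatment term went from 0.44 (SE 0.124) to 0.24 (SE 0.164) and the slope from 0.12 (SE 0.0307) to 0.07 (SE 0.0422, edgeR adjusted p = 0.492). For Gm42418 the treatment term went from 0.83 (SE 0.353) to 0.18 (SE 0.418) and the slope from 0.29 (SE 0.0782) to 0.26 (SE 0.109, edgeR adjusted p = 0.333). Rmrp was the only one of the 7 whose treatment term became larger by over 0.2, from 0.06 (SE 0.113) to 0.28 (SE 0.146), with a slope of -0.08 (SE 0.0382, edgeR adjusted p = 0.411).

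**Figure D4:**
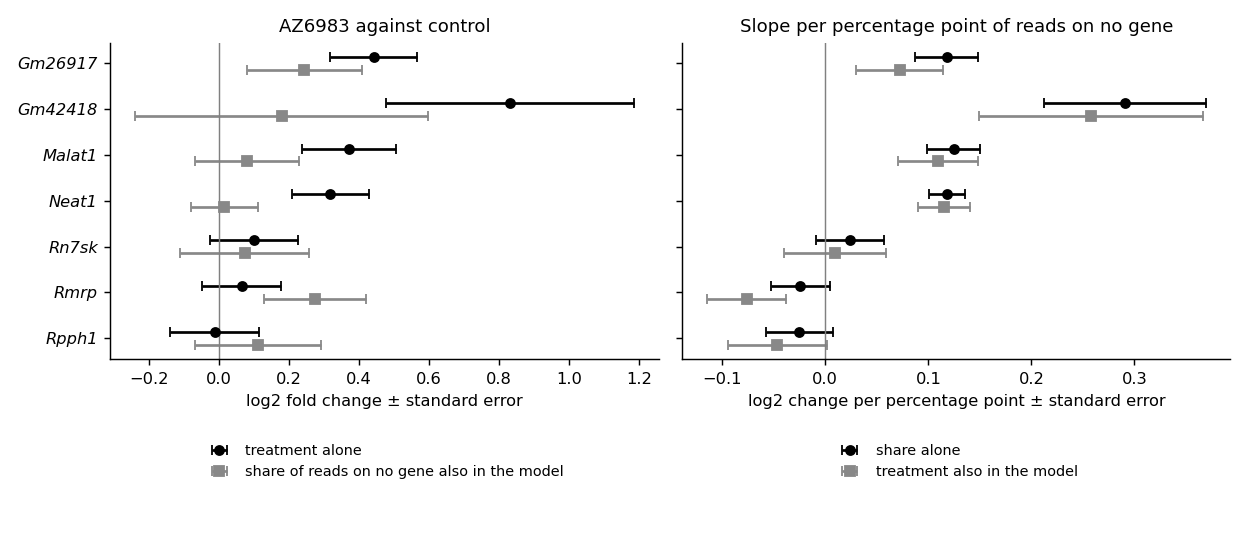
Fitted terms of the 7 RNAs with their standard errors. The left panel gives the log2 fold change of AZ6983 against control and the right panel the log2 change per percentage point of reads on no gene, each fitted alone (black circles) and with the other term in the model (gray squares). The treatment term of Neat1 went from 0.32 to 0.01 while its slope stayed at 0.12.

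Reads of repeated rRNA can be set aside as aligned to several places, so the slope on that share was fitted too. Of all genes 61 passed (0.385%), 34 with a positive slope (0.214%) and 27 with a negative one (0.17%), and none of the 7 RNAs did. DESeq2 called 1142 genes for this slope and limma-voom 0, and without A5 edgeR called 1471. Neat1 had a slope of -0.13 per percentage point (SE 0.0367, edgeR adjusted p = 0.157), which passed 10% FDR in DESeq2 (adjusted p = 0.0348), with library totals only as the scaling (adjusted p = 0.0916) and without A5 (adjusted p = 0.0287). Gm26917 had a slope of -0.09 (SE 0.0564, edgeR adjusted p = 0.446) and Gm42418 one of -0.16 (SE 0.147, edgeR adjusted p = 0.601).

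The 7 RNAs fell into groups by how they varied over the mice, given here as r of log2 CPM over 12 mice with no test. Gm26917, Gm42418, Malat1 and Neat1 varied together, with r from 0.67 (Gm26917 with Gm42418) to 0.85 (Gm42418 with Malat1). Rpph1 varied with Rn7sk (r = 0.70, rho 0.59) and with Rmrp (r = 0.70, rho 0.78). The 2 rows of the rRNA locus differed in their relation to other rows. Gm42418 was close to Lars2 (r = 0.94, rho 0.91), and moved with mt-Rnr1 (r = 0.71, rho 0.81). Lars2 is a mitochondrial leucyl-tRNA synthetase gene and not itself an rRNA. Gm26917 showed little relation to mt-Rnr1 (r = 0.07, rho 0.10), and its r with Lars2 was 0.48 (rho 0.30). Rmrp went against mt-Rnr1 (r = -0.76, rho -0.88), which ranged from 4124 CPM in A3 to 29325 CPM in A5. The row of Rn18s-rs5 (mean 25.5 CPM in control and 23.6 CPM in treated mice) had an r of -0.45 with Gm42418, whose bases it shares in part.

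**Figure D5:**
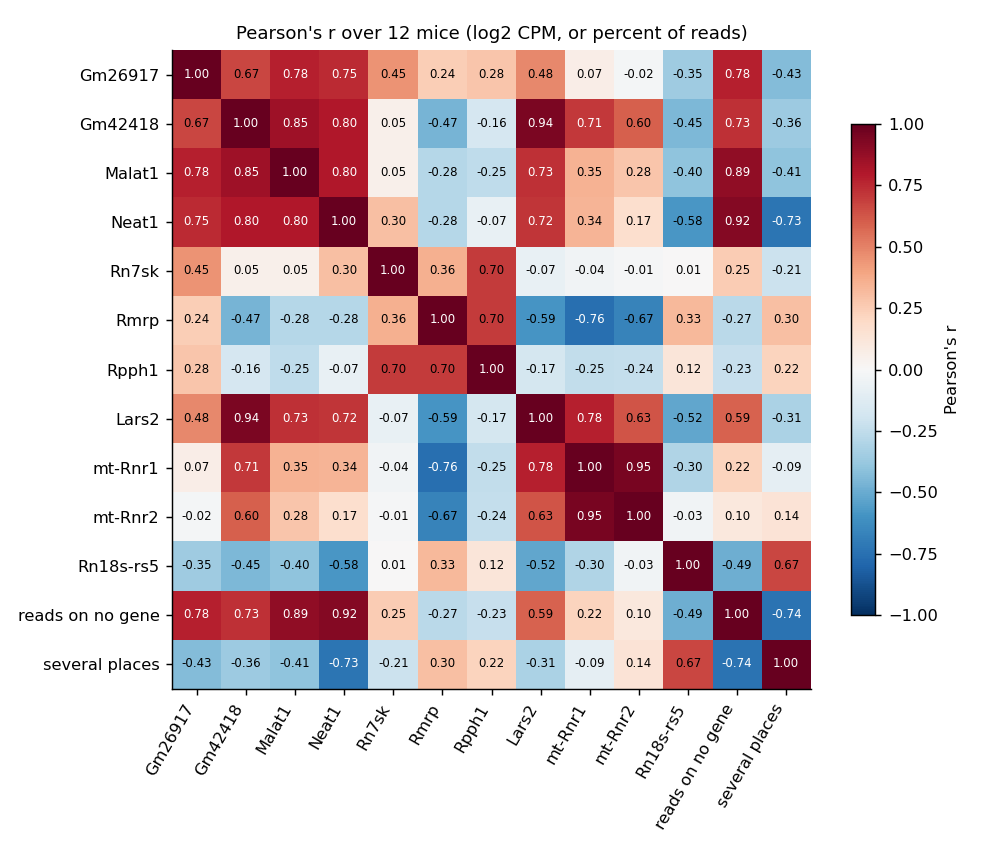
Pearson's r between the 7 RNAs, 4 other rows (mt-Rnr1, mt-Rnr2, Rn18s-rs5 and the protein-coding gene Lars2) and the shares of reads on no gene and aligned to several places, over 12 mice. Levels are log2 CPM, and the color and the printed value give r, which is 0.94 between Gm42418 and Lars2 and 0.92 between Neat1 and the share on no gene.

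The genes outside the list with the most similar pattern, by Pearson's r of log2 CPM over 12 mice, were named for each RNA as a description. For Neat1 they were Arhgef7 (r = 0.96), Thada (0.95) and Cacna1g (0.95), and for Malat1 Gm43844 (0.97), Gm42986 (0.95) and Cyp2ab1 (0.94). For Gm26917 they were Lrrc32 (0.95), Pvrl1 (0.92) and Scmh1 (0.92), and for Gm42418 Lars2 (0.94), Taf15 (0.93) and Flt4 (0.92). Rn7sk was closest to Ajuba, Rfx2 and its copy Gm26035 (0.83 each), which shares 37.9% of the 50-base stretches of Rn7sk. Rmrp was closest to Rpl10a-ps1 (0.95), Med11 (0.91) and Rpl38-ps2 (0.90), and Rpph1 to Alg3 (0.89), Amdhd2 (0.80) and Tex261 (0.80). For the small RNAs other than Rmrp these values were lower than for the other 5.

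Genes that work with these RNAs were read from lists fitted in the same way, against the background of 7.2% of genes with a positive and 2.75% with a negative slope on the share of reads on no gene. Among paraspeckle proteins, partners of Neat1, Sfpq (slope 0.11), Taf15 (0.10) and Rbm14 (0.09) rose with the share, and 0 fell. Of 7 genes for nuclear speckles and the processing of Malat1, 2 rose: Srrm2 (0.16) and Son (0.05), both scaffold proteins of speckles. Of 12 other long noncoding RNAs that are kept in the nucleus or act on chromatin, 7 rose and 0 fell, with a median slope of 0.0917 against 0.000562 over all genes. Among the 7 that passed, the largest slopes were those of Kcnq1ot1 (0.20, edgeR adjusted p = 0.000424), the antisense RNA of the Kcnq1 imprinted domain, Mirg (0.16), Meg3 (0.13) and Mir99ahg (0.10).

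Partners of the small RNAs were read in the same fit, in which 9.95% of all genes passed in either direction. Of 7 proteins of the 7SK particle and P-TEFb and of 10 proteins of RNase MRP and RNase P, 0 passed in either direction. Naf1, an assembly factor of the telomerase RNA, rose (slope 0.06) as 1 of 8 telomerase proteins. Of 18 genes for RNA polymerases I and III and their regulators, Polr1a rose (0.04), while Maf1, a repressor of RNA polymerase III, fell by 0.06 and Polr3f fell by 0.04 on the log2 scale per percentage point. A list of 4 rows held mt-Rnr1, mt-Rnr2, Rn18s-rs5 and the protein-coding gene Lars2. Of these, of 6 other small RNAs and of 15 host genes of small nucleolar RNAs, 0 passed. Lars2 had a slope of 0.28 (SE 0.0988, edgeR adjusted p = 0.124). For AZ6983 against control, where 0% of all genes were called, 0 genes of any of these lists passed. The same held for the slope on reads aligned to several places, where 0.385% of all genes passed.

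Markers of other cell types were read beside the slope. The skeletal muscle genes Acta1 and Ckm rose with the share on no gene (slopes 0.81 and 0.70, edgeR adjusted p = 0.0881 and 0.0774), as 2 of 3 markers of that list. The 3 markers summed to 2.08 to 244 CPM in controls and to 8.35 to 280 CPM in AZ6983 mice, and none was at 0 in every mouse. Vwf, an endothelial marker, rose as 1 of 3 (slope 0.09, edgeR adjusted p = 0.0694). In the same list Cdh5 had a slope of 0.07 (edgeR adjusted p = 0.256). Pecam1 went the other way at -0.05 (edgeR adjusted p = 0.266), and neither of them passed. The endothelial list summed to 766 to 920 CPM in controls and 829 to 1010 CPM in AZ6983 mice. Of 4 smooth muscle markers 0 passed, and they summed to 12801 to 17072 CPM in controls and 9796 to 17128 CPM in AZ6983 mice. The part of skeletal muscle or endothelium in the slopes of Neat1, Malat1, Gm26917 and Gm42418 was not tested.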

How the data were processed

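Total RNA from the thoracic aorta of 12 mice was depleted of rRNA and made into stranded, paired-end libraries by the authors. The authors deposited raw counts per gene symbol. The submitters' processing notes name CASAVA 1.8.2, STAR 2.5.2b, HTSeq 0.6.1p1 and mm10, and the annotation is not given in the sources used here. The table had 25284 genes and 3 rows that name no gene (on no gene 8.02% to 14.9% of reads, several places 18.1% to 23.2%, ambiguous 0.606% to 0.698%), which entered neither library sizes nor tests.

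Groups came from the sample labels. The test was that of edgeR 4.0.16 (R 4.3.3, TMM, filterByExpr, quasi-likelihood test, Benjamini-Hochberg over 15857 genes, 10% FDR) for treatment and for slopes on the shares of reads. CPM used TMM library sizes, and log2 CPM a prior count of 2. Single values were tested by exact permutation over 924 assignments, correlations by 100000 permutations or, within a group, all 720 pairings. DESeq2 1.42.0, limma-voom (limma 3.58.1), other scalings, no filter, 5% FDR and leaving out each mouse were alternatives, and Terc without A4 was added after seeing the data. Members and lists were chosen with earlier results of these data known. The named genes were all members, the 3 genes most like each in r, and at most 4 called genes per list. Rag1, Dntt and Cd3e are listed markers. Gene positions and sequences came from GENCODE M21 and RefSeq on GRCm38, used by symbol. The count over the paraspeckle list is not reported here. The fits were also run on simulated data with the same dispersion for every gene. Real counts need not share this, and no result here rests on it. Precision falls with the count, down to 1 for Terc in mouse A1.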

Additional observations from a re-analysis of the deposited data

Results flagged for a closer look

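Of 22 groups of 6 mice examined for a single mouse standing apart, 1 was found, where chance alone would give about 1.1. It was Terc in AZ6983 mice, at 1.22 CPM in mouse A4 and at 0.0371 to 0.336 CPM in the other 5. The gap to the next mouse was 0.749 of the group's range, above the critical value of Dixon's test. The same mouse had the highest counts of the thymocyte genes Rag1 and Dntt, and their part in the Terc value was not tested.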

How the results depend on the processing

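No paired analysis was possible because mouse numbers do not repeat between the groups and the labels give no pairing. The count of genes called for AZ6983 against control was 0 in edgeR, 84 in DESeq2, 2 with library totals only as the scaling and 0 to 27 when each mouse was left out, the highest without A5. For the slope on reads on no gene it was 1578, against 812 with library totals only, 1021 without the filter, 700 at 5% FDR, 1 with treatment in the model and 71 (without C1) to 2126 (without A5) with a mouse left out. For the slope on reads aligned to several places it was 61, against 1142 in DESeq2, 0 in limma-voom, 138 with library totals only, 0 without the filter, 0 at 5% FDR, 0 with treatment in the model and 0 to 1471 (without A5) with a mouse left out. The cause of these changes was not tested, beyond the stricter threshold and the fewer mice. The difference in the share of reads on no gene stayed between 2.28 and 3.23 points with a mouse left out. Among the 7 RNAs, Gm26917, Gm42418, Malat1, Neat1 and Rn7sk kept a positive treatment term in all 19 alternatives. Rmrp ranged from -0.0135 to 0.104 and Rpph1 from -0.0843 to 0.0755 with a mouse left out, and Rpph1 was 0.11 with the share on no gene in the model. The slopes of Gm26917, Gm42418, Malat1 and Neat1 on reads on no gene stayed positive in all 20 alternatives, but none passed with treatment in the model. Gm26917 also missed 10% FDR without the filter (adjusted p = 0.114) and Gm42418 missed 5% FDR (adjusted p = 0.0544). Depth limits only Terc, with 1 to 46 counts per mouse.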
